A study of Mus musculus with 4 samples.

Results

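The 9 genes described here belong to the axis that links phosphoinositide 3-kinase (PI3K) to the kinase mTOR and the Foxo transcription factors. They were chosen by symbol, as Foxo1, Foxo3, Pik3cd, Pik3ip1, Akt1, Tsc1, Mtor, Rptor and Rictor, and all 9 were among the 24421 genes listed in the files. Their levels were compared between regulatory T cells (Tregs) recovered from omental tumors and from spleens. Tumor-bearing CD45.1+ mice, injected intraperitoneally with the EG7.1.15 line, had been joined surgically to tumor-free CD45.1- mice of the strain B6 Foxp3-DTR/GFP, in which the diphtheria toxin receptor and a green fluorescent reporter follow Foxp3, and stayed joined for 14 days. At day 14 after tumor injection, live CD45.2+ CD4+ CD25+ reporter-positive Tregs of partner origin were sorted from the tumor-bearing animal, without B220+ or CD45.1+ cells. The 2 omental tumor libraries came from mouse 2 and mouse 3, and the 2 spleen libraries from the same mice. Both tissues therefore share the parabiosis, the tumor and the sort, and the omentum of an animal without a tumor was not analysed here.

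In T cells, antigen and costimulatory receptors activate class I PI3K, which makes a lipid messenger that brings the kinase Akt to the membrane. Akt phosphorylates Foxo1 and Foxo3 and so keeps them out of the nucleus, and it relieves the brake that the tuberous sclerosis complex places on mTOR. mTOR works in a complex with raptor, which favours growth and anabolic metabolism, and in a complex with rictor, which phosphorylates Akt in turn. In Tregs, Foxo factors are needed for stable Foxp3 and for lymphoid homing, and lower Foxo1 activity accompanies the move to an activated, tissue-seeking state. All of this control acts on proteins and phosphorylation, which transcript counts do not measure.

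The bases before the annotated start are shown for 3 members and for 1 known Foxo target, because Pik3ip1 was the member that passed the test, Foxo1 is the factor itself, Akt1 was the tested member that stood higher in omental tumor, and Txnip is a Foxo target that stood lower with Pik3ip1. Sequences are from RefSeq (GRCm38.p6), 250 bases on the strand of the gene, and capitals mark the Foxo core motif TGTTTAC or its reverse complement GTAAACA.
Pik3ip1, chr11:3330481-3330730, plus strand: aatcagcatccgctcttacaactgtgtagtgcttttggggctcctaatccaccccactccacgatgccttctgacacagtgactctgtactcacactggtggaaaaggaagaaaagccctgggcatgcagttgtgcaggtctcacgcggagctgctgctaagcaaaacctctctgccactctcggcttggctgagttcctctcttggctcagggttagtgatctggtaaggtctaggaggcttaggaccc
Foxo1, chr3:52268087-52268336, plus strand: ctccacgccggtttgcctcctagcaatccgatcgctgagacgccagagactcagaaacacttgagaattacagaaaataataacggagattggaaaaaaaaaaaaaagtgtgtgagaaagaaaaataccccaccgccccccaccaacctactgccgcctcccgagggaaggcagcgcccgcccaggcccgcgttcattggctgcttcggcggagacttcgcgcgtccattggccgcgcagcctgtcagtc
Akt1, chr12:112674885-112675134, minus strand: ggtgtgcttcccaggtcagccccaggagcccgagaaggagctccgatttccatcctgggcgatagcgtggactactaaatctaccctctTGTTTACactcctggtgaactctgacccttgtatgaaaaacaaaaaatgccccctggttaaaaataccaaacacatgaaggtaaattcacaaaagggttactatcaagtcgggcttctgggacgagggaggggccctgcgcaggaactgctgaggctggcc
Txnip, chr3:96557707-96557956, plus strand: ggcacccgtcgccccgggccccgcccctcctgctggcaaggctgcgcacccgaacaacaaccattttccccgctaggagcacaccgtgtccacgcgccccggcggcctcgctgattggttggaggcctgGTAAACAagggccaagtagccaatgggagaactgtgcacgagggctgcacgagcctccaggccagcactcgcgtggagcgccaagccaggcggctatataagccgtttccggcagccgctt
The motif was searched on both strands, and a match is a description of these letters only. Of the 9 members, 1 held it, Akt1, at 161 bases before the first of its 2 listed starts. Among 16 genes raised by Foxo factors for which RefSeq gave a window, 2 held it, Txnip at 121 bases and Bcl2l11 at 227 bases before a start. In the other lists, Pik3cg held it among 8 class I PI3K genes and Mapkap1 among 7 other mTOR complex subunits, and the remaining 7 lists with windows held none. Over all promoters the motif was in 3.54% of 27025 genes and in 3.17% of 32851 windows of this length. The RefSeq start of Pik3ip1 lies inside the longer gene model of GENCODE used for positions in the text.

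Counts in genes totalled 6660230 and 3764508 in the omental tumor libraries of mouse 2 and mouse 3, and 9989005 and 13598631 in the spleen libraries. Of the 16322 genes with enough counts to test, 178 were higher and 37 lower in omental tumor at an adjusted p below 0.05 in edgeR's quasi-likelihood test, against 188 and 13 with upper-quartile factors. Of 12 T lineage genes tested, all had negative log2 fold changes and 0 passed the test (0 also at an unadjusted p below 0.05). Summed T lineage levels, in CPM (counts scaled to a common effective library size), were 4854 and 4971 in omental tumor against 6568 and 10401 in spleen. Markers of neutrophils summed to 158 and 1481 CPM in omental tumor against 103 and 72.7 CPM in spleen, with 4 of 8 tested called higher and Elane at 0 in all libraries. Macrophage and monocyte markers summed to 1252 and 1082 against 414 and 920.0 CPM (2 of 12 called higher), where 6 of the 12 had negative log2 fold changes, the median was 0.10 overall and -0.87 in mouse 3, and Ccr2 and Lyz2 made up much of the omental sum. Fibroblast markers summed to 283 and 25.8 against 26.0 and 8.51 CPM (2 of 7 called higher). Genes listed for handling and early response summed to 1705 and 2051 against 999.6 and 220.3 CPM (2 of 10 called higher). Junb made up much of the omental sum, at 1137 and 981 CPM against 584 and 104 CPM. Of the 10, 8 had positive and 2 negative log2 fold changes, but only 6 stood higher in omental tumor in both mice, and 0 lower in both. Jun (3.68 and 40.8 against 63.1 and 6.41 CPM) and Egr1 (10.6 and 51.6 against 42.7 and 13.4 CPM) were lower in mouse 2 and higher in mouse 3. Treg identity genes summed to 4934 and 6420 against 3319 and 5145 CPM, with 0 of 9 called in edgeR and 1, lower, at an unadjusted p below 0.05. Tnfrsf4 and Ctla4 made up much of this sum, while 6 of the 9 genes had negative log2 fold changes and the median was -0.64. Foxp3 itself stood at 81.4 and 84.3 CPM against 113 and 144 CPM (-0.64, adjusted p = 0.840). Markers of B cells, of mesothelium and adipocytes, of red cells, and of NK and CD8 T cells each summed to at most 99.9 CPM in a library. In bulk samples fewer cells of a type and less RNA per cell cannot be told apart. The part of other cells, depth and handling in the results that follow was not tested.

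Of the 9 members, 8 were tested, and in both mice 7 of these stood below their spleen level, against 31.6% of all genes tested. Foxo3 did not pass the filter on low counts. The median log2 fold change of the 8 was -1.03, where that of all genes tested was 0.11. Taken from the ratios of a single mouse, the median of the 8 was -0.71 in mouse 2 and -1.44 in mouse 3, against 0.07 and 0.09 for all genes. The 12 T lineage genes also had a negative median, -0.82, with -0.49 in mouse 2 and -1.66 in mouse 3. Of these 12, 9 stood lower in both mice, and 7 had both omental libraries below both spleen libraries. Both omental libraries stood below both spleen libraries for 6 of the 8, against 25.4% of all genes tested, and above them for 1, Akt1, against 16.4%. A single member passed the test, and 0 passed with the mouse as a block. The member was Pik3ip1, which was lower. Calls in that direction made up 0.227% of all genes tested, calls of higher genes 1.09%, and calls in either direction 1.32%. At an unadjusted p below 0.05, 2 members were lower and 0 higher, Pik3ip1 and Pik3cd, against 4.85% of all genes lower, 4.15% higher and 9.01% in either direction. The direction of the 7 was the same with TMM, RLE and upper-quartile factors and with library gene totals, while scaling to the T lineage genes, added after the data were seen, turned Rptor to 0.025.

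**Figure D1:**
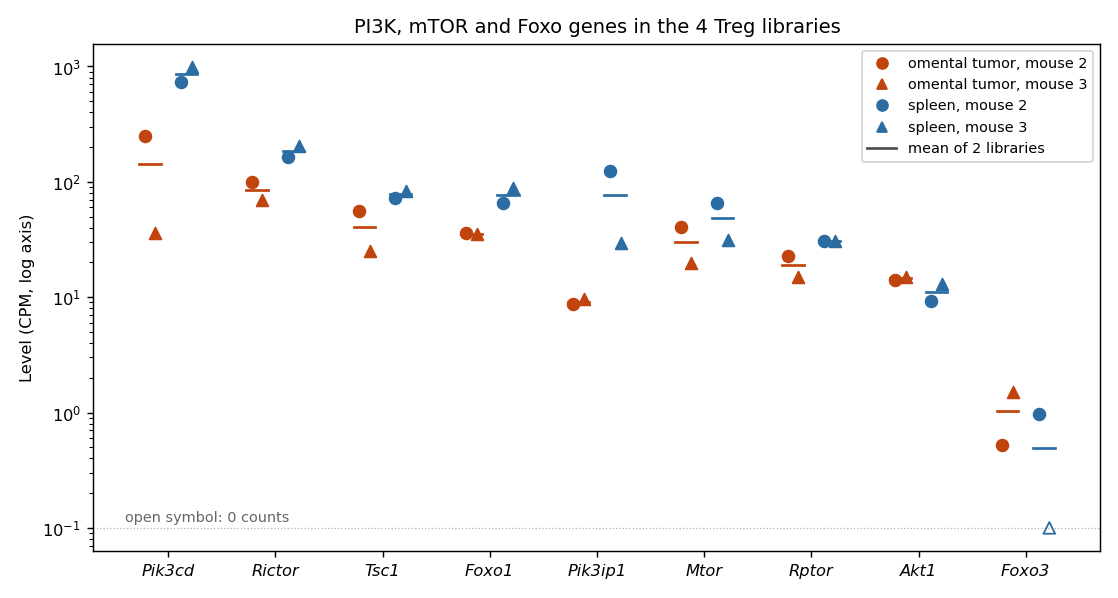
Level of each of the 9 genes in CPM (log axis) in every library, with omental tumor in orange left of spleen in blue, circles for mouse 2, triangles for mouse 3 and bars for the mean of 2 libraries. Pik3cd spreads between the omental libraries (249 and 35.7 CPM) and Pik3ip1 between the spleen libraries (123 and 29.5 CPM), while the omental libraries lie close together for Foxo1 and Akt1, and Foxo3 had 0 counts in 1 spleen library.

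PI3K-delta is the class I PI3K that dominates in lymphocytes, and its catalytic subunit p110-delta is encoded by Pik3cd (chromosome 4, 149649168 to 149702571, minus strand, mm10). Pik3cd stood at 249 and 35.7 CPM in the omental tumor libraries of mouse 2 and mouse 3, against 739 and 989 CPM in the spleen libraries. All omental values lay below all spleen values, and the omental libraries themselves differed 6.98-fold. The omental level was 33.7% of the spleen level in mouse 2 and 3.61% in mouse 3. The log2 fold change was -2.60 (SE 0.91), and the gene was not called (adjusted p = 0.175, unadjusted p = 0.00423, edgeR's quasi-likelihood test). DESeq2 called the gene (-2.65, adjusted p = 0.0414), as did limma-voom (-3.19, adjusted p = 0.00431). The log2 fold change was -4.61 without the omental library of mouse 2, where the gene was called (adjusted p = 0.0304), and -1.88 without that of mouse 3 (adjusted p = 0.936). The omental library of mouse 3 is also the shallowest of the 4 and the one with 1481 CPM of neutrophil markers, and its 141 Pik3cd counts carry a counting error of 8.42%.

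Pik3ip1 encodes a transmembrane protein that binds the catalytic subunit of PI3K and restrains it, and it is high in resting T cells (chromosome 11, 3330401 to 3342971, plus strand). It stood at 8.66 and 9.62 CPM in omental tumor, from 66 and 38 counts, against 123 and 29.5 CPM in spleen, from 1259 and 322 counts. Here the omental libraries agreed and the spleen libraries differed 4.18-fold, with the higher spleen value in mouse 2. The level in omental tumor was 7.03% of that in spleen in mouse 2 and 32.7% in mouse 3. Pik3ip1 fell by 3.06 on the log2 scale in omental tumor (SE 0.82, adjusted p = 0.0197, edgeR's quasi-likelihood test), placing it 43rd from the lowest fold change of the 16322 genes. With the mouse as a block the log2 fold change was -2.73 and the call was lost (adjusted p = 0.0850). The call was also lost without any 1 library, at adjusted p = 0.0583 and 0.151 without the omental libraries of mouse 2 and mouse 3, and 0.616 and 0.117 without the spleen libraries. Without the spleen library of mouse 2 the log2 fold change was -1.75. Scaled by library gene totals alone, Pik3ip1 averaged 10.0 CPM in omental tumor against 74.9 CPM in spleen, with a log2 fold change of -2.90 that was not called (adjusted p = 0.332). All 14 alternative settings left the sign negative, and 3 of them called the gene.

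Pik3cd and Pik3ip1, an enzyme subunit and its inhibitor, both stood lower in omental tumor in both mice, but by different amounts. The number of Pik3cd counts per Pik3ip1 count, which library scaling does not touch, was 28.7 and 3.71 in omental tumor against 5.99 and 33.6 in spleen. The groups overlapped, with the higher value in mouse 2 in omental tumor and in mouse 3 in spleen. The genes whose pattern over the 4 libraries was closest to Pik3ip1 were Nod1, a sensor of bacterial peptidoglycan, Il17ra, a receptor subunit for interleukin-17, and Gramd4. Their log2 CPM, centred on each gene's mean, differed from that of Pik3ip1 by a root mean square of 0.36, 0.38 and 0.50 among 5756 genes. Closest to Pik3cd were Slc35c1, a GDP-fucose transporter of the Golgi, Dgka, a diacylglycerol kinase that dampens T cell receptor signalling, and Slc44a2, a choline transporter, at 0.11, 0.15 and 0.17. With 4 libraries such likeness is a description only.

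**Figure D2:**
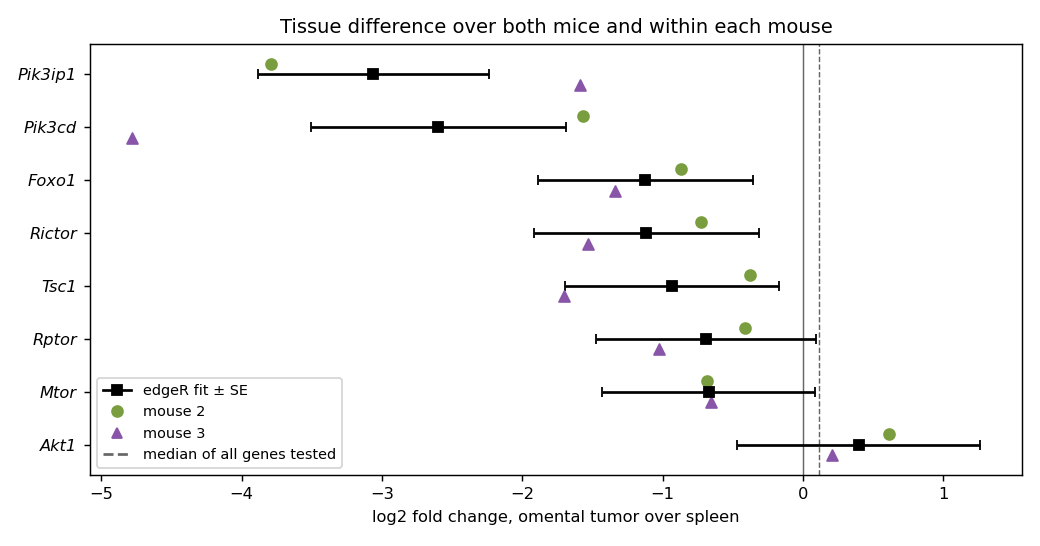
Log2 fold change of omental tumor over spleen for the 8 tested genes, as the edgeR fit with its SE (black squares) and as the ratio within mouse 2 (green circles) and mouse 3 (purple triangles); the dashed line is the median of all genes tested, 0.11. The mice lie far apart for Pik3ip1 (-3.79 and -1.59) and Pik3cd (-1.57 and -4.78) and together for Mtor (-0.68 and -0.65).

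Akt1 encodes a serine and threonine kinase that PI3K signalling activates (chromosome 12, 112653821 to 112674884, minus strand). It was the only tested member above its spleen level in both mice, at 14.2 and 14.9 CPM in omental tumor against 9.20 and 12.9 CPM in spleen. The groups did not overlap, but the difference was small, 0.40 on the log2 scale (SE 0.86), and was not called (adjusted p = 0.910, edgeR's quasi-likelihood test). It rested on 59 to 141 counts a library, with counting errors from 8.42% to 13.0%. Its relative Akt2, which is better known from insulin responses, went the other way, with 75.0 and 27.8 CPM in omental tumor against 136 and 170 CPM in spleen (-1.57, adjusted p = 0.551).

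Tsc1 encodes hamartin, which stabilises the complex that holds mTOR in check and keeps T cells quiescent (chromosome 2, 28641228 to 28691167, plus strand). Its levels were 56.1 and 25.3 CPM in omental tumor against 73.1 and 82.9 CPM in spleen. The groups did not overlap, and the omental libraries differed 2.21-fold. The log2 fold change of -0.94 (SE 0.76) was not called (adjusted p = 0.775, edgeR's quasi-likelihood test).

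Mtor encodes the kinase shared by both mTOR complexes (chromosome 4, 148448611 to 148557683, plus strand). It stood at 40.7 and 19.7 CPM in omental tumor, against 65.5 and 31.2 CPM in spleen. It was the tested member whose tissues overlapped, since mouse 2 exceeded mouse 3 in both tissues by 2.06-fold and 2.10-fold. Within each mouse the omental level was a similar share of the spleen level, 62.2% in mouse 2 and 63.3% in mouse 3. The log2 fold change was -0.67 (SE 0.76, adjusted p = 0.827, edgeR's quasi-likelihood test). Taking the mouse as a block gave the same log2 fold change, -0.67, with an adjusted p of 0.711.

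Rptor encodes raptor, the scaffold that brings substrates to the first mTOR complex (chromosome 11, 119602905 to 119899576, plus strand). It was measured at 22.8 and 14.9 CPM in omental tumor and at 30.5 and 30.7 CPM in spleen. The spleen libraries were nearly equal and the omental libraries lay below them. The log2 fold change was -0.69 (SE 0.78, adjusted p = 0.827, edgeR's quasi-likelihood test).

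Rictor encodes the defining subunit of the second mTOR complex (chromosome 15, 6708379 to 6800401, plus strand). Its values were 99.8 and 69.9 CPM in omental tumor against 166 and 203 CPM in spleen, without overlap. The log2 fold change of -1.12 (SE 0.80) was not called (adjusted p = 0.735, edgeR's quasi-likelihood test). The number of Rptor counts per Rictor count was 0.229 and 0.214 in omental tumor against 0.184 and 0.151 in spleen, higher in omental tumor in both mice.

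Foxo1 is the main Foxo factor of T cells, where it drives Klf2, S1pr1, Ccr7 and Il7r (chromosome 3, 52268336 to 52353221, plus strand). Its levels were 35.8 and 34.9 CPM in omental tumor, against 65.6 and 88.9 CPM in spleen. The omental libraries agreed within 1.03-fold, and both lay below the spleen libraries. In spleen the lower value came from mouse 2. The omental level was 54.7% of the spleen level in mouse 2 and 39.3% in mouse 3, and the log2 fold change stood at -1.13 (SE 0.77; adjusted p = 0.710, edgeR's quasi-likelihood test). Over the alternative settings it ran from -1.39 to -0.36 and stayed negative, with 0 calls among them. The number of Foxo1 counts per Akt1 count was 2.53 and 2.34 in omental tumor against 7.13 and 6.89 in spleen. Library scaling does not touch this ratio, and the tissues were further apart than the mice within them. Of the 28 pairs of tested members, 16 had tissues that did not overlap. These pairs share genes and so repeat the differences of single members. The share among pairs of all genes was not computed, so this count has no reference. The ratios between members given here were picked after their values were seen.

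Foxo3, the other Foxo factor that supports Foxp3, was scarcely detected in the deposited counts, with 4 and 6 counts in omental tumor against 10 and 0 in spleen (chromosome 10, 42181841 to 42276755, minus strand). This corresponds to 0.525 and 1.52 CPM in omental tumor against 0.979 and 0 CPM in spleen. Exact Poisson 95% intervals, which cover counting error only, were 0.143 to 1.34 and 0.557 to 3.31 CPM in omental tumor and 0.469 to 1.80 and 0 to 0.338 CPM in spleen. The groups overlapped, and the gene was not tested in the main fit. In mouse 3 the interval of omental tumor lay above that of spleen, while in mouse 2 the intervals overlapped. The intervals of the spleen libraries were also apart from each other, so no difference between the tissues can be read from these counts. The deepest library, spleen of mouse 3, held 0 counts and the shallowest, omental tumor of mouse 3, held 6. Foxo3 is commonly detected in T cells, the annotation behind the counts is not given in the sources used here, and the cause of these low values was not tested. Foxo4 was also low, at 2.89 and 4.05 CPM against 3.23 and 4.39 CPM (-0.14, adjusted p = 0.975), and Foxo6 did not pass the filter.

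Levels of different members were compared per kilobase of exon, with exons taken from GENCODE M21, which may not be the annotation the authors counted on. In omental tumor the order of mean CPM per kilobase was Pik3cd at 22.7, Rictor at 5.01, Foxo1 at 4.08, Akt1 at 3.55, Tsc1 at 3.44, Mtor at 2.99, Pik3ip1 at 2.14, Rptor at 1.40 and Foxo3, whose counts are in doubt, at 0.135. In spleen it was Pik3cd at 138, Pik3ip1 at 17.9, Rictor at 10.9, Foxo1 at 8.92, Tsc1 at 6.59, Mtor at 4.78, Akt1 at 2.70, Rptor at 2.27 and Foxo3 at 0.0646. Pik3ip1 thus stood seventh of the 9 in omental tumor and second in spleen by the mean, a rank set by spleen of mouse 2, since in mouse 3 its 6.90 CPM per kilobase lay below Rictor at 12.0, Foxo1 at 10.3 and Tsc1 at 7.01. In omental tumor each gene from Rictor to Pik3ip1 overlapped the next in its libraries, except that both Foxo1 values exceeded both Akt1 values, and both Pik3ip1 values exceeded both Rptor values. In spleen, Pik3ip1 (28.8 and 6.90 CPM per kilobase) overlapped Rictor (9.79 and 12.0 CPM per kilobase), as did each later gene the next down to Rptor, except that both Foxo1 values exceeded both Tsc1 values. Pik3cd stood above the next gene in each library of spleen, and in omental tumor its lowest value, 5.70 CPM per kilobase, lay below the highest of Rictor, 5.89. Exons of Foxo1, Pik3ip1 and Rptor overlap opposite-strand transcripts over 7.78%, 2.13% and 0.624% of their length, and unstranded reads from the partners cannot be told apart.

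Per 1000 CPM of summed T lineage genes, the tissues drew closer for most members. Foxo1 stood at 7.38 and 7.03 in omental tumor against 9.98 and 8.55 in spleen, and Rictor at 20.6 and 14.1 against 25.2 and 19.5, so that Rictor overlapped. Mtor (8.38 and 3.97 against 9.97 and 3.00) and Rptor (4.71 and 3.01 against 4.65 and 2.95) overlapped as well, as did Tsc1. Pik3cd stayed apart at 51.3 and 7.18 against 112 and 95.1, and Pik3ip1 at 1.78 and 1.94 against 18.8 and 2.83. Akt1, at 2.92 and 3.01 against 1.40 and 1.24, was higher in omental tumor on this scale. A fit scaled to these T lineage genes gave log2 fold changes of -2.54 for Pik3ip1, -1.83 for Pik3cd, -0.36 for Foxo1 and 1.16 for Akt1, with 0 members called in edgeR. On that scale the median of all genes tested was 0.79, with library gene totals it was 0.37, and with upper-quartile factors 0.60. Relative to the median of its own setting, Pik3ip1 lay at -3.17 with TMM factors, -3.27 with library gene totals and -3.33 with the T lineage scaling. Foxo1 lay at -1.24, -1.20 and -1.15 in the same order. A change of scaling shifts all genes nearly alike, so steadiness of this distance says nothing particular about Pik3ip1.

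**Figure D3:**
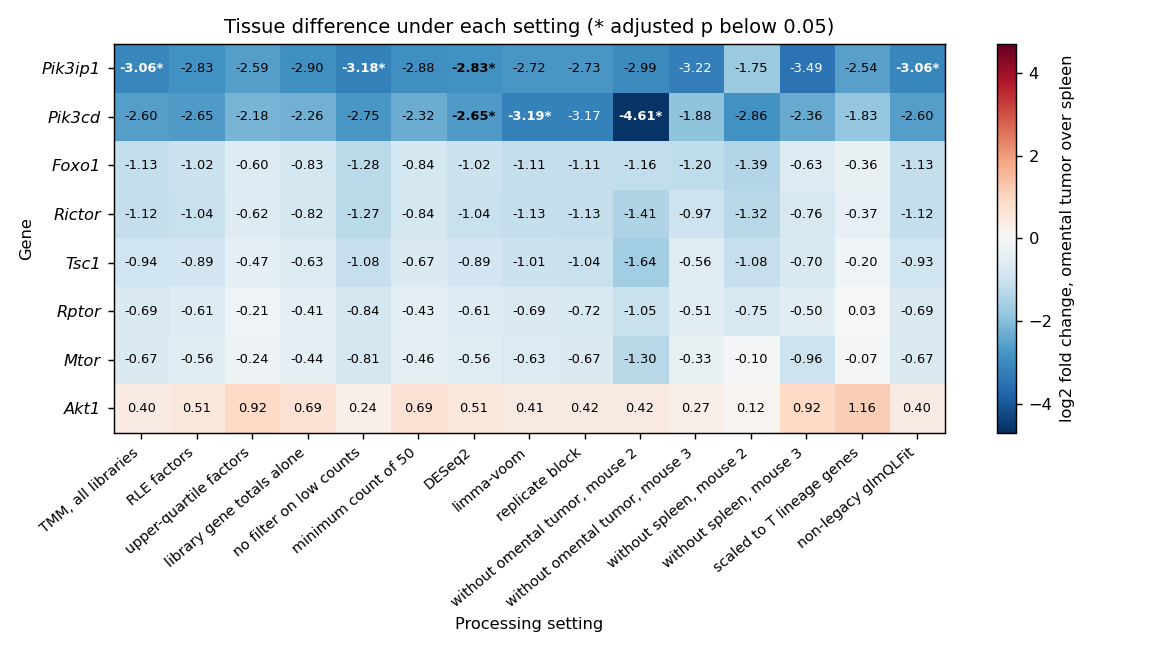
Log2 fold change of omental tumor over spleen for the 8 tested genes (rows) under each processing setting (columns), coloured by size, with an asterisk where the adjusted p was below 0.05. Pik3ip1 and Pik3cd are the only rows with asterisks, in 4 and 3 columns, and Akt1 is the only row that is positive throughout.

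The rest of the pathway was examined through 70 further genes, of which 69 were tested, 1 was called higher and 0 lower, against 1.09% and 0.227% of all genes tested. At an unadjusted p below 0.05, 5 were higher and 7 lower, against 4.15% and 4.85%. Their median log2 fold change was -0.32, with 46 negative and 23 positive, against a median of 0.11 for all genes, of which 7575 were negative and 8747 positive. Among 9 class I PI3K subunits and adaptors the median was -0.91 and Pik3ap1 was called. Pik3ap1 encodes an adaptor that links receptors to PI3K in B cells and myeloid cells. It rose by 2.94 on the log2 scale (SE 0.81, adjusted p = 0.0268), with 13.9 and 173 CPM in omental tumor against 8.22 and 16.1 CPM in spleen. The high value was that of the omental library of mouse 3, in which neutrophil markers reached 1481 CPM, and the mouse 2 value lay among the spleen values. Without that library the log2 fold change was 0.10 (adjusted p = 0.979), and with the mouse as a block it was 2.11 and not called (adjusted p = 0.240). The call was likewise lost when a spleen library was left out (2.48 with adjusted p = 0.581 for mouse 2, and 4.0 with adjusted p = 0.283 for mouse 3). Library gene totals (0.370), no filter (0.0776), a minimum count of 50 (0.353), limma-voom (0.220) and the T lineage scaling (0.510) lost it as well. Pik3r5, a regulatory subunit of PI3K-gamma, stood at 81.3 and 19.7 CPM against 150 and 168 CPM (-1.65, adjusted p = 0.516). The alternative regulatory subunit gene Pik3r6 stood at 6.69 and 1.52 CPM against 0.783 and 0.366 CPM (2.83, adjusted p = 0.530).

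The 7 phosphatases that lower PI3K or Akt signalling had a median of -0.83 on the log2 scale, with 0 called in edgeR and 1 at an unadjusted p below 0.05. Inpp4b, which removes a phosphate from a PI3K lipid product, was that gene, with 246 and 119 CPM in omental tumor against 855 and 1010 CPM in spleen (-2.35, adjusted p = 0.281). DESeq2 called it (adjusted p = 0.0220). Inpp5d, which encodes SHIP1, stood at 319 and 94.2 CPM against 351 and 499.6 CPM (-1.04, adjusted p = 0.773), and the Akt phosphatase gene Phlpp1 at 46.7 and 11.4 CPM against 60.0 and 48.4 CPM (-0.89, adjusted p = 0.783). For the 5 kinases of the Akt step the median was -0.73, with 0 called and 1, Akt2, at an unadjusted p below 0.05. Pdpk1, the kinase that activates Akt, stood at 58.9 and 44.6 CPM against 108 and 105 CPM (-1.04, adjusted p = 0.746). Sgk1, a kinase downstream of the second mTOR complex, stood at 235 and 87.9 CPM against 50.0 and 92.6 CPM (1.18, adjusted p = 0.704).

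The partners of Tsc1 and mTOR were uneven across the mice. Tsc2, the catalytic partner of Tsc1, stood at 93.1 and 10.4 CPM in omental tumor against 112 and 152 CPM in spleen (-1.35, adjusted p = 0.631). Rheb, the small GTPase that Tsc2 switches off and that turns on mTOR, stood at 93.6 and 262 CPM against 66.2 and 20.4 CPM (2.04, adjusted p = 0.327). Rhebl1 stood at 7.48 and 10.9 CPM against 11.7 and 13.7 CPM (-0.48, adjusted p = 0.896), and of the 4 genes 0 were called, with Rheb alone at an unadjusted p below 0.05. Among 8 other subunits and assembly factors of the mTOR complexes the median was -0.64, with 0 called and 2 at an unadjusted p below 0.05. These were Mlst8, a subunit of both complexes, at 12.2 and 7.34 CPM against 25.1 and 40.5 CPM (-1.74, adjusted p = 0.489), and Tti1, at 44.5 and 7.60 CPM against 59.7 and 106 CPM (-1.66, adjusted p = 0.488). Telo2, which acts with Tti1 in building mTOR complexes, stood at 30.7 and 4.81 CPM against 34.8 and 56.9 CPM (-1.36, adjusted p = 0.624). Leaving out omental tumor of mouse 2, Tsc2 (-3.68, adjusted p = 0.0201), Tti1 (-3.46, adjusted p = 0.0275), Telo2 (-3.26, adjusted p = 0.0419) and Rheb (2.59, adjusted p = 0.0457) were called. The omental library of mouse 3, with 1481 CPM of neutrophil markers, held the lowest values of Tsc2, Tti1 and Telo2 and the highest of Rheb.

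The 25 sensors of amino acids and energy upstream of mTOR had a median of -0.32 on the log2 scale, with 0 called and 3 at an unadjusted p below 0.05. Wdr24, a part of the GATOR2 complex that favours mTOR activation, stood at 36.6 and 9.37 CPM in omental tumor against 77.1 and 98.7 CPM in spleen (-1.93, adjusted p = 0.339). Sesn1, a leucine-sensing inhibitor of mTOR, stood at 123 and 44.1 CPM against 304 and 216 CPM (-1.63, adjusted p = 0.547). Fnip2, a partner of folliculin, stood at 17.7 and 46.1 CPM against 11.1 and 2.10 CPM (2.27, adjusted p = 0.232). Fnip2 (2.80, adjusted p = 0.0273) and Wdr24 (-3.24, adjusted p = 0.0394) were called without the omental library of mouse 2. For the 10 substrates and effectors of the first mTOR complex the median was -0.18, with 0 called and 1 at an unadjusted p below 0.05. That gene was Eif4ebp1, the inhibitor of cap-dependent translation, at 21.5 and 86.6 CPM against 20.2 and 12.6 CPM (1.72, adjusted p = 0.461). The S6 kinase gene Rps6kb2 averaged 23.8 ± 5.44 CPM against 48.8 ± 9.19 CPM (SD, n = 2 each, log2 fold change -1.03, adjusted p = 0.746). Maf1, a repressor of RNA polymerase III, stood at 72.9 and 75.7 CPM against 241 and 24.5 CPM (-0.84, adjusted p = 0.798).

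**Figure D4:**
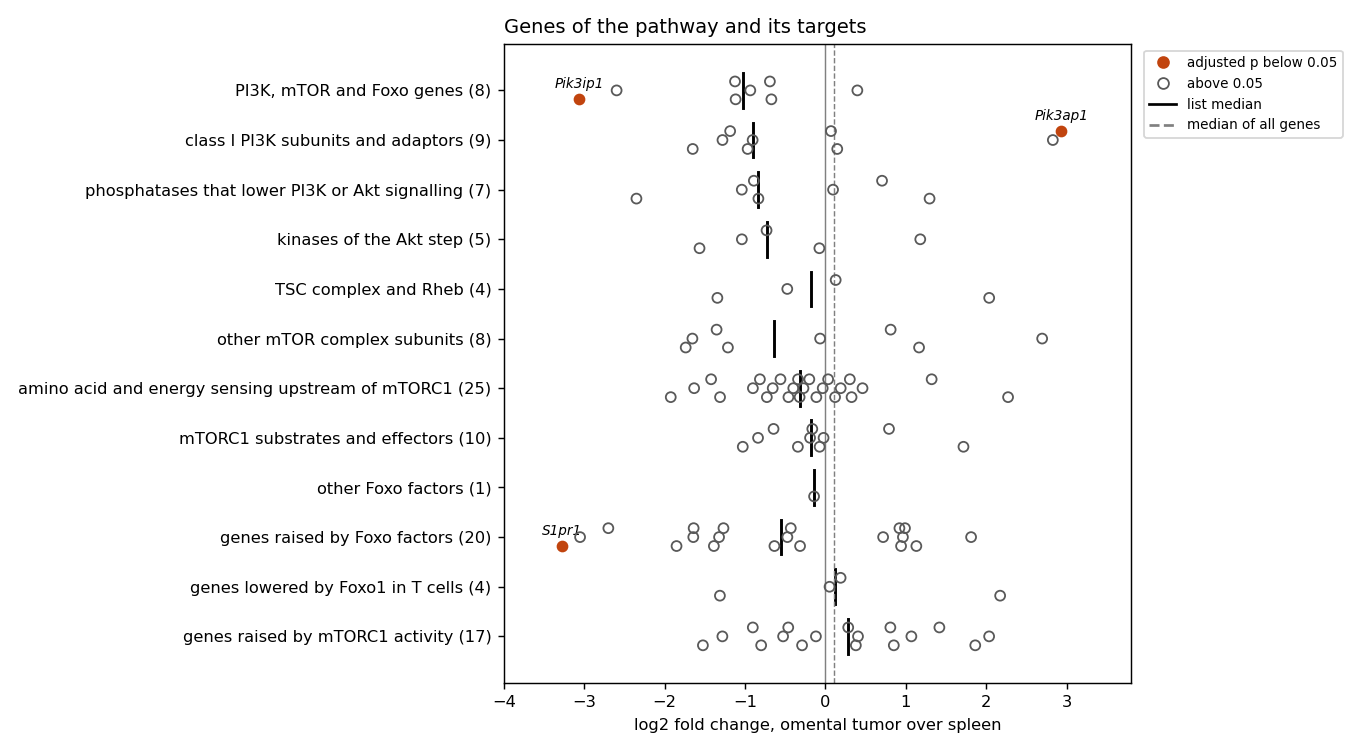
Log2 fold change of omental tumor over spleen for each tested gene of the pathway and target lists (rows, with the number tested), filled where the adjusted p was below 0.05, with a black bar for the list median and a dashed line for the median of all genes tested. Pik3ip1, Pik3ap1 and S1pr1 are the called genes, and list medians run from -1.03 for the 9-gene set to 0.28 for genes raised by the first mTOR complex.

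The 20 genes known to be raised by Foxo factors had a median of -0.55 on the log2 scale, with 1 called lower and 0 higher. At an unadjusted p below 0.05, 5 were lower and 1 was higher, against 4.85% and 4.15% of all genes tested, and 7 of the 20 had positive values. S1pr1, the sphingosine 1-phosphate receptor for exit into lymph and blood, was the called gene, at 153 and 38.7 CPM in omental tumor against 785 and 1078 CPM in spleen (-3.28, adjusted p = 0.0378). The call was lost when omental tumor of mouse 3 was left out (adjusted p = 0.936), as it was without either spleen library (0.372 for mouse 2 and 0.688 for mouse 3). It was also lost with RLE factors (0.105), upper-quartile factors (0.121), library gene totals (0.270), no filter (0.0562), a minimum count of 50 (0.244) and the T lineage scaling (0.527), and it held in DESeq2, limma-voom and the fit with the mouse as a block. Txnip, a Foxo target that restrains glucose uptake and whose promoter is printed above, stood at 93.5 and 145 CPM against 821 and 1155 CPM. Its tissues were far apart and its mice close together, at -3.13 in mouse 2 and -3.00 in mouse 3 on the log2 scale. It missed the threshold (-3.05, adjusted p = 0.0703) and was called with the mouse as a block (-3.07, adjusted p = 0.0450). DESeq2 called Txnip (adjusted p = 0.00272), as did limma-voom (adjusted p = 0.00756).

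For the 4 genes that Foxo1 holds down in T cells the median was 0.12, with 0 called and 1 at an unadjusted p below 0.05. That gene was Gzmb, a granzyme, at 533 and 705 CPM in omental tumor against 81.1 and 193 CPM in spleen (2.17, adjusted p = 0.335). Perforin, encoded by Prf1, stood at 9.45 and 4.56 CPM against 15.8 and 19.4 CPM (-1.31, adjusted p = 0.704), and Ifng, the interferon-gamma gene, at 11.9 and 8.35 CPM against 4.40 and 13.5 CPM (0.19, adjusted p = 0.958). For the 17 genes raised by the first mTOR complex the median was 0.28, with 0 called and 3 at an unadjusted p below 0.05. The hexokinase gene Hk2, for the first step of glycolysis, stood at 18.5 and 30.4 CPM against 5.28 and 6.59 CPM (2.04, adjusted p = 0.384). Slc7a5, a transporter of large neutral amino acids, stood at 6.04 and 26.1 CPM against 3.62 and 5.12 CPM (1.86, adjusted p = 0.546).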

How the data were processed

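Per the labels' protocols, total RNA of sorted cells was reverse transcribed by SMART-seq v4 chemistry and tagmented with Nextera XT, which do not mark the strand. The deposited values are raw read counts per gene symbol, made with Trim Galore, TopHat2, SAMtools and HTSeq on mm10, per the submitters' processing notes. Of these steps, versions, annotation and strandedness were not given in the sources used here. The 5 HTSeq summary entries were left out of library sizes and tests. They made up 82.9% and 77.8% of the file in omental tumor of mouse 2 and mouse 3, against 75.1% and 54.0% in spleen. This share thus differed with the tissue, and its part in the results was not tested.

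Counts were tested in R 4.3.3 with edgeR 4.0.16 (filterByExpr at a minimum count of 10, TMM scaling with factors from 0.804 to 1.15, estimateDisp, glmQLFit and glmQLFTest with default settings). The model held the tissue alone, with 2 residual degrees of freedom. P-values were adjusted by Benjamini-Hochberg over 16322 genes, with a threshold of 0.05. CPM are counts scaled to TMM effective library size, and ratios within a mouse use log2 CPM with a prior count of 2. SE is the absolute log2 fold change over the square root of F. The prior degrees of freedom were infinite, so SE and p do not measure a gene's own spread. DESeq2 1.42.0 and limma-voom (limma 3.58.1) were alternatives, with other scalings, filters, a mouse block and each library left out. The procedure was tested on simulated data.

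Mouse numbers in the labels mark the same animal in both tissues and so pair the samples. Deviations from tissue means correlated at 0.234 between libraries of a mouse. Named genes are all members, from each pathway list the called genes and the 3 with the smallest p, and for the 2 members with the largest differences the 3 nearest genes with a mean of at least 32 CPM. Some genes that this rule names are not reported here. Members and lists were chosen with earlier results of these data known. Gene positions are from GENCODE M21 (GRCm38, the build mm10).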

Additional observations from a re-analysis of the deposited data

How the results depend on the processing

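Called genes numbered 215 and called members 1 in the analysis reported. Genes called were 26 with library gene totals alone, 3 at a minimum count of 50, 370 with DESeq2 (3481 without an adjusted p) and 0 in edgeR with the T lineage scaling (1193 at an unadjusted p below 0.05), and ran from 44 to 606 when each library was left out. Members called were 0 with RLE factors, upper-quartile factors, library gene totals, a minimum count of 50, the replicate block or the T lineage scaling, 2 with DESeq2 (Pik3ip1 and Pik3cd), and from 0 to 1 when each library was left out. Genes lower and called were 67 with the replicate block, against 37, and of the other genes named only Pik3ap1 and Txnip changed their call with it. The T lineage scaling and the non-legacy form of glmQLFit, which called 233 genes, were chosen after seeing the data. Among single genes, 11 values of 628 changed sign and 561 kept their sign and their side of the threshold. Signs turned for Rptor (0.025, T lineage scaling), Rhebl1 (0.064 with upper-quartile factors, 0.26 with the T lineage scaling), and Foxo4 (0.40 with upper-quartile factors, 0.14 with library gene totals, 0.62 with the T lineage scaling). With each library left out, Maf1 ran from -1.43 to 1.54 (positive without spleen of mouse 2), Foxo4 from -0.49 to 0.37 (positive at 0.07 without omental tumor of mouse 2 and 0.37 without spleen of mouse 3), and Ifng from -0.46 to 1.41 (negative at -0.11 without omental tumor of mouse 2 and -0.46 without spleen of mouse 2). None of these was called, and the cause was not tested. With 1 library left out, its tissue has a lone library whose variation is taken from the other tissue. The smallest absolute log2 fold change called was 2.78, and 3 counts correspond to 0.760 CPM in the omental library of mouse 3.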
